A study of Mus musculus with 4 samples.

Results

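The 9 genes Gata4, Gata6, Sox17, Foxa2, Hnf4a, Pdgfra, Dab2, Cubn and Amn are regulators and surface or endocytic receptor genes of the primitive endoderm, and their nascent RNA was compared in mouse embryonic stem (ES) cells with and without a Supt3 mutation. The genes were picked by symbol from the 54146 mouse genes of the deposited tables, and each symbol had 1 row. TT-seq was used, in which RNA made during a pulse of 4-thiouridine is purified and sequenced, so that counts report ongoing transcription. The cells were grown in LIF and serum. There were 2 libraries with the genotype label Supt3 WT and 2 labelled Supt3 KO, here WT and KO, and all 4 carry S. pombe (fission yeast) RNA as a spike-in. Supt3 encodes a core subunit of the coactivator complex SAGA. The labels give neither the mutant allele nor the number of clones or cultures behind each genotype, so the spread that p-values rest on may be technical.

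The primitive endoderm is the extraembryonic layer that forms next to the epiblast in the blastocyst and later gives rise to the visceral and parietal endoderm of the yolk sac. Its precursors switch on Gata6, which opposes the epiblast regulator Nanog, and then Sox17, Gata4 and the receptor Pdgfra. FGF signalling favours this choice. ES cell cultures kept in serum are known to hold some cells that drift towards it. The visceral endoderm takes up nutrients through the receptor pair cubilin and amnionless, with the adaptor Dab2.

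Libraries held 13.1 to 19.4 M counts of mouse genes (M, 1e6), and the 9 genes together took 0.0109% and 0.0149% of them in WT and 0.0194% and 0.0288% in KO. Replicate 2 of each genotype was the deeper one, with 19.4 M in WT and 18.4 M in KO against 13.5 M and 13.1 M. Levels are given as CPM, counts per 1e6 mouse counts after scaling with TMM factors, which take most genes as unchanged. Supt3 itself had 147 and 158 CPM in WT, against 123 and 140 CPM in KO, and did not pass (log2 fold change -0.22 ± 0.10, SE, edgeR adjusted p = 0.232). Counted over its full span, the gene gives no check of the mutant allele. The ES cell marker Pou5f1 lay between 128 and 154 CPM in all libraries. Counts had been made over whole gene spans with strand kept apart: of 6422 genes that lie wholly inside another gene on their own strand, 0 had a count, against 46.1% of 6209 that lie inside a gene of the opposite strand only. Introns therefore count, and levels are compared between genes as CPM per kb of gene span. Sox2, which lies inside Sox2ot on the same strand, was at 0 in each library for that reason and was not used.

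Relative to the bulk of nascent RNA, Gata4, Gata6, Sox17, Pdgfra and Dab2 rose in KO, while Foxa2, Hnf4a, Cubn and Amn did not pass the test. The 5 genes rose by 2.11-fold to 2.75-fold. All 9 genes were abundant enough to be tested. Across the 16789 tested genes, 4.05% were higher and 4.02% lower at an adjusted p under 0.05 in edgeR's quasi-likelihood test, so 5 of 9 higher and 0 of 9 lower stood against that background. DESeq2 and limma voom gave the same counts of 5 and 0, and at an unadjusted p under 0.05 edgeR had 6 higher and 0 lower, against 11.6% and 11.3% of all genes. The median log2 fold change was 1.08 over the 9 genes and 0.01 over all tested genes. For 6 genes both KO libraries lay above both WT libraries and for 0 genes both lay below, patterns shown by 26.7% and 26% of all tested genes. These genes were named with earlier results of the same libraries known, so the counts describe them. In bulk RNA, more cells in an endoderm-like state and more RNA per cell cannot be told apart.

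**Figure D1:**
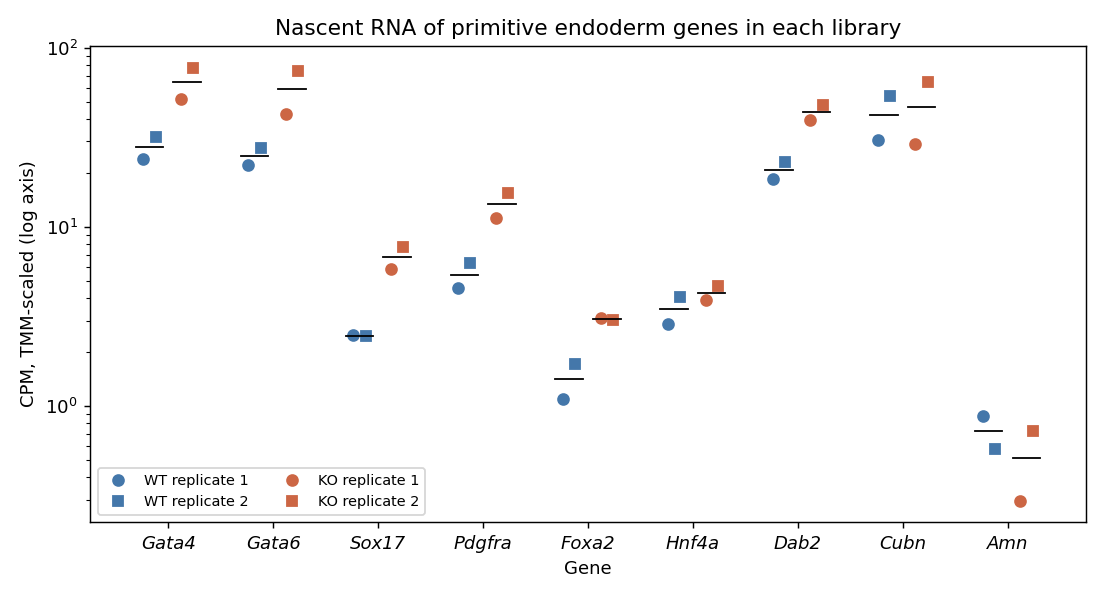
Nascent RNA level of each gene in each library, as TMM-scaled CPM on a log axis, with circles for replicate 1, squares for replicate 2 and short lines for the mean of each genotype. The KO points of Gata4, Gata6, Sox17, Pdgfra, Foxa2 and Dab2 all lie above their WT points, and those of Hnf4a, Cubn and Amn overlap them.

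Gata6, a zinc finger factor at the top of the primitive endoderm programme, is on the plus strand of chromosome 18 from 11052508 to 11085635 (mm10). The WT libraries had 22.2 and 27.5 CPM, the KO libraries 42.8 and 74.4 CPM. The KO libraries were both higher than either WT library, but they lay further apart from each other than the WT pair did. Its log2 fold change was 1.24 ± 0.23 (SE, edgeR adjusted p = 0.0145), from 24.9 ± 3.72 to 58.6 ± 22.4 CPM (SD, n = 2 each). Without KO replicate 2 the log2 fold change was 0.78. Compared within the pair of shallower libraries the log2 difference was 0.94, and within the deeper pair it was 1.44. The non-coding gene 1010001N08Rik starts opposite Gata6 and shares 60 bases with it on the other strand. Its counts were 18 and 18 in WT and 15 and 53 in KO, so it rose with Gata6 in the deeper KO library alone and did not pass (log2 fold change 0.92 ± 0.48, edgeR adjusted p = 0.292).

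Gata4, the related zinc finger factor that follows Gata6 in this lineage, spans 63198922 to 63271692 on the minus strand of chromosome 14. Transcription stood at 24.1 and 31.6 CPM in the WT libraries and at 51.8 and 77.6 CPM in the KO libraries, with no overlap between the genotypes. On the log2 scale the rise was 1.21 ± 0.19 (SE, edgeR adjusted p = 0.00824), and the differences within the shallower and the deeper pair were 1.10 and 1.29. Gata4 and Gata6 kept almost the same ratio in every library. The count of Gata6 per count of Gata4 was 0.924 and 0.870 in WT and 0.827 and 0.960 in KO, which does not depend on any scaling. The mean log2 ratio moved by -0.01 between genotypes, less than the gaps of 0.09 and 0.21 between libraries of 1 genotype. This is 1 of 8 such ratios, chosen after the values were seen, and none can go below an exact permutation p of 0.333. The smallest value after adjustment over the 8 (Benjamini-Hochberg) was 0.533.

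Sox17, an HMG-box factor required for endoderm, had the largest fold change of the 9 genes and the 90th highest among all tested genes. It spans 4490931 to 4497354 on the minus strand of chromosome 1, a gene of 6.42 kb. Raw counts were 34 and 47 in WT and 79 and 137 in KO, or 2.49 and 2.45 CPM against 5.85 and 7.67 CPM. The WT libraries were nearly equal and the KO libraries were both more than double that level. The log2 fold change was 1.46 ± 0.24 (SE, edgeR adjusted p = 0.00920). Within the pairs of like depth the differences were 1.23 and 1.65.

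Foxa2, a forkhead factor of visceral and definitive endoderm, was the borderline case. It is on the minus strand of chromosome 2 from 148042877 to 148046969, and had 15 and 33 counts in WT and 42 and 54 in KO. In CPM these were 1.10 and 1.72 against 3.11 and 3.02, so the genotypes did not overlap, yet the counts were low. The log2 fold change of 1.08 ± 0.31 (SE) gave an edgeR adjusted p of 0.0702, and 0.207 in DESeq2. With no filter on low counts it passed (edgeR adjusted p = 0.00570), as it did with a term for the deeper and shallower pairs (edgeR adjusted p = 0.00206). Under those settings 4.27% and 13.2% of all genes were higher.

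The long intergenic RNA gene 9030622O22Rik lies just past the 3' end of Foxa2 on the same strand, from 147944740 to 148040203, with 2673 bases between them. It was picked out after its values were seen, as the only tested neighbour of Foxa2 within 250 kb. It had 4.02 and 6.79 CPM in WT and 15.2 and 22.2 CPM in KO, both KO libraries well above WT. Its log2 fold change was 1.77 ± 0.26 (SE, edgeR adjusted p = 0.00607), above that of Foxa2.

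Hnf4a, a nuclear receptor that drives visceral endoderm and liver genes, spans 163506808 to 163572910 on the plus strand of chromosome 2. The WT libraries had 2.85 and 4.07 CPM and the KO libraries 3.92 and 4.65 CPM, which overlap. Its log2 fold change of 0.29 ± 0.26 (SE) did not pass (edgeR adjusted p = 0.553). The ratio of Gata6 to Hnf4a counts was 7.80 and 6.76 in WT and 10.9 and 16.0 in KO. That log2 ratio differed by 0.86, more than the gaps of 0.21 and 0.55 within genotypes, but with 2 libraries a side the exact two-sided permutation test cannot go below p = 0.333, the value it gave.

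Among the receptor genes, Pdgfra rose. It encodes the alpha receptor for platelet-derived growth factor, a surface marker of primitive endoderm precursors, and spans 75152292 to 75198215 on the plus strand of chromosome 5. WT libraries held 4.54 and 6.26 CPM, KO libraries 11.3 and 15.5 CPM, and the genotypes did not overlap. The rise in log2 was 1.30 ± 0.22 (SE, edgeR adjusted p = 0.0110), and it was the steadiest of the 5 across the library pairs, at 1.31 and 1.30.

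Dab2, the clathrin adaptor that carries endocytic receptors, spans 6299788 to 6440712 on the plus strand of chromosome 15. Its WT libraries had 18.4 and 23.1 CPM and its KO libraries 39.6 and 48.2 CPM, with no overlap. The rise was 1.08 ± 0.15 in log2 (SE, edgeR adjusted p = 0.00437), the smallest of the 5 but with the smallest error. The ratio of Pdgfra to Dab2 counts was 0.246 and 0.271 in WT and 0.284 and 0.321 in KO, a log2 difference of 0.23 that was a little larger than the gaps of 0.14 and 0.17 within genotypes (exact two-sided permutation, p = 0.333, the smallest this design allows).

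Cubn, which encodes cubilin, the large extracellular receptor that Dab2 helps to internalise, did not pass. It spans 13276338 to 13491813 on the minus strand of chromosome 2 and was well counted, with 419 and 1031 counts in WT and 391 and 1158 in KO. In CPM these were 30.7 and 53.8 in WT and 29.0 and 64.9 in KO. Both shallower libraries were low and both deeper libraries were high, whatever the genotype. KO over WT came to 0.15 ± 0.34 in log2 (SE, edgeR adjusted p = 0.844). Leaving out a library turned its sign: it was 0.60 and passed without KO replicate 1 (edgeR adjusted p = 3.5e-05), and -0.56 and passed without KO replicate 2 (edgeR adjusted p = 0.0117). In those fits 5.25% of all genes were higher and 7.81% lower. The ratio of Gata6 to Cubn counts, free of scaling, was 0.726 and 0.511 in WT and 1.48 and 1.15 in KO. Its log2 difference of 1.10 exceeded the gaps of 0.51 and 0.37 within genotypes (exact two-sided permutation, p = 0.333, the smallest possible here).

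Amn, which encodes amnionless, the membrane partner that holds cubilin at the surface, is a gene of 5.33 kb with few counts in every library. It lies on the plus strand of chromosome 12 from 111271095 to 111276426 and had 12 and 11 counts in WT and 4 and 13 in KO. The libraries overlapped, and the log2 fold change of -0.40 ± 0.53 (SE) did not pass (edgeR adjusted p = 0.723). A change of the size seen in Dab2 cannot be judged from so few counts.

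**Figure D2:**
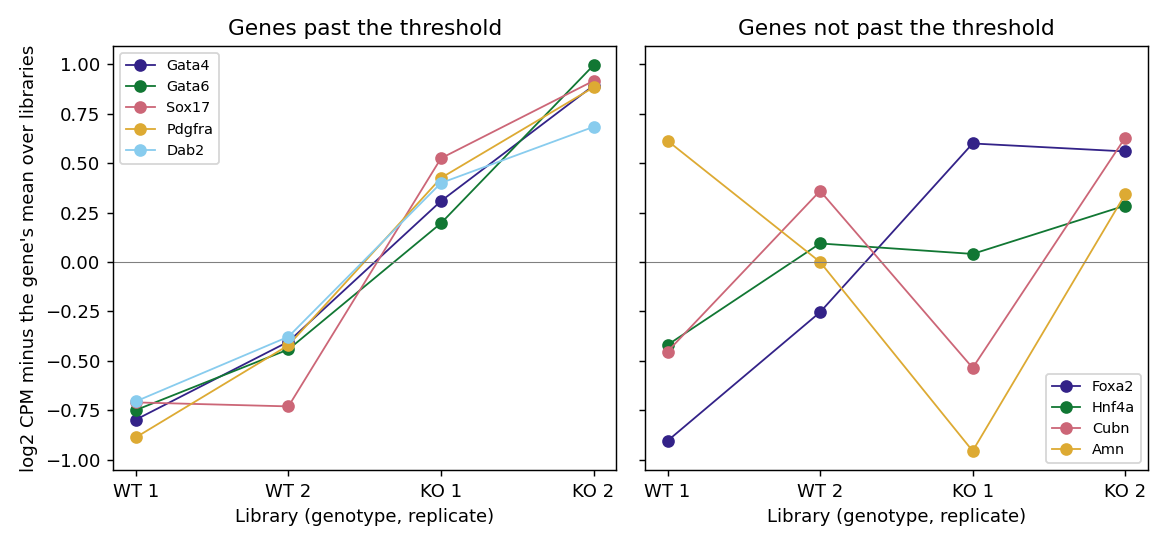
Level of each gene in the 4 libraries as log2 CPM minus that gene's mean over the libraries, with lines joining the points of 1 gene. The 5 genes past the threshold share 1 profile, with both KO libraries above both WT libraries, whereas Cubn is high in replicate 2 of either genotype.

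The split between deeper and shallower libraries touched other genes as well. Gata4, Gata6, Pdgfra, Hnf4a, Dab2 and Cubn were higher in the deeper library of both genotypes, 6 of 9 against 31.3% of all tested genes. With genotype in the edgeR model, the deeper over the shallower libraries differed by 0.99 ± 0.09 in log2 for Cubn (edgeR adjusted p = 3.25e-23), the 60th highest of 16789 genes. Gata6 differed by 0.59 ± 0.09, Gata4 by 0.50 ± 0.09 and Dab2 by 0.30 ± 0.10, which also passed (4 of 9 higher, 0 lower, against 4.59% and 4.38% of all genes). This term was added after the values were seen, was defined by counted reads and leaves 1 residual degree of freedom, so its p-values are weak evidence. The labels do not say what sets these pairs apart, and with genotype and pair in the same model the genotype differences were 1.21 for Gata4, 1.22 for Gata6, 1.47 for Sox17, 1.31 for Pdgfra, 1.08 for Dab2 and 0.12 for Cubn, close to those without it.

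The promoter windows of Pdgfra and Dab2, which rose, and of Cubn and Hnf4a, which did not pass, are printed because Gata4 and Gata6 rose and GATA factors are known regulators of this lineage. Windows are the 250 bases before annotated start sites, from RefSeq on GRCm38.p6 (mm10). Gata6 was left out of this search and no window was available for Gata4 or Sox17, so windows of 6 of the 9 genes were used. Each is written 5' to 3' along the gene's strand. The motif searched, on either strand, was AGATAA, in which the first base may also be T and the last may also be G, and a match is in capitals. Dab2 and Hnf4a each have 2 annotated starts, and the second of Hnf4a, not printed, held no match. The windows are chr5:75152001-75152250 (plus) for Pdgfra, chr15:6299539-6299788 and chr15:6386498-6386747 (plus) for Dab2, chr2:13491877-13492126 (minus) for Cubn and chr2:163506607-163506856 (plus) for the first start of Hnf4a.
Pdgfra: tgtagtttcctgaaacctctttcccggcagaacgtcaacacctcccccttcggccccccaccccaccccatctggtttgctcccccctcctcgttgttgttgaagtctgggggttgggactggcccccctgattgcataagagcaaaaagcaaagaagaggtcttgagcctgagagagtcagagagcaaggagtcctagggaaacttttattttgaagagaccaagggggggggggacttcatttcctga
Dab2 first start: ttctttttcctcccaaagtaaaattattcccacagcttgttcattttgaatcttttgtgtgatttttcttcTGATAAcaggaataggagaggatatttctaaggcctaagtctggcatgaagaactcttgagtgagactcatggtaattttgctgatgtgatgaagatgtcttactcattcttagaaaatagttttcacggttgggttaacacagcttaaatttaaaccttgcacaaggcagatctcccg
Dab2 second start: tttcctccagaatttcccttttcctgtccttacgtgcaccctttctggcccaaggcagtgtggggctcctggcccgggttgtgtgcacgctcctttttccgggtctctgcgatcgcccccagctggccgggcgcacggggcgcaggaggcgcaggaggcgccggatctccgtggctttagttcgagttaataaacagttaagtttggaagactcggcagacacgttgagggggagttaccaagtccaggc
Cubn: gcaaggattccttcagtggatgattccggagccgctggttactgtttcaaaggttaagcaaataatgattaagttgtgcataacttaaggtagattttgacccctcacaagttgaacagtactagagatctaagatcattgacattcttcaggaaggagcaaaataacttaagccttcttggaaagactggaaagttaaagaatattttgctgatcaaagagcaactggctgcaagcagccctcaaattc
Hnf4a first start: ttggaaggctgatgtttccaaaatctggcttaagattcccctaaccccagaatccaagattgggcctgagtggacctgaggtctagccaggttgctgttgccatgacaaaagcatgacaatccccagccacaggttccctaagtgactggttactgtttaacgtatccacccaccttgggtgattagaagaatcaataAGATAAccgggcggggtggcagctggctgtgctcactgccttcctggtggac
Of these, the window of the first Dab2 start had a match at 179 bases before the start and that of Hnf4a had one at 52 bases before it, while those of Pdgfra, the second Dab2 start and Cubn had none. Over all 10 windows of the 6 genes 3 held a match, the third being that of the third annotated start of Foxa2. Of all 32851 windows of this length, 26.5% held a match. The letters ATTGTT and TGTTTAC, cores bound by SOX and FOXA factors, were in none of the 10 windows on either strand, against 9.42% and 3.17% of all windows. Among the genes that rose, only Pdgfra and Dab2 had windows. A match was seen in Dab2, and also in Hnf4a and Foxa2, which did not pass.

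Per kb of gene span Gata6 was the most transcribed of the 9 genes in WT, at 0.751 ± 0.112 CPM per kb (SD, n = 2). Sox17 at 0.385 ± 0.00379, Gata4 at 0.383 ± 0.0735 and Foxa2 at 0.345 ± 0.108 came next and did not differ beyond their spread. Cubn (0.196 ± 0.0760), Dab2 (0.147 ± 0.0235), Amn (0.136 ± 0.0403) and Pdgfra (0.118 ± 0.0266) formed a lower group with overlapping spreads. Hnf4a was lowest at 0.0524 ± 0.0130. In KO the order of the first 4 was unchanged, with Gata6 at 1.77 ± 0.675 and Sox17 at 1.05 ± 0.201 CPM per kb. Dab2 at 0.312 ± 0.0432 and Pdgfra at 0.291 ± 0.0647 then stood above Cubn at 0.218 ± 0.118, within its spread.

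**Figure D3:**
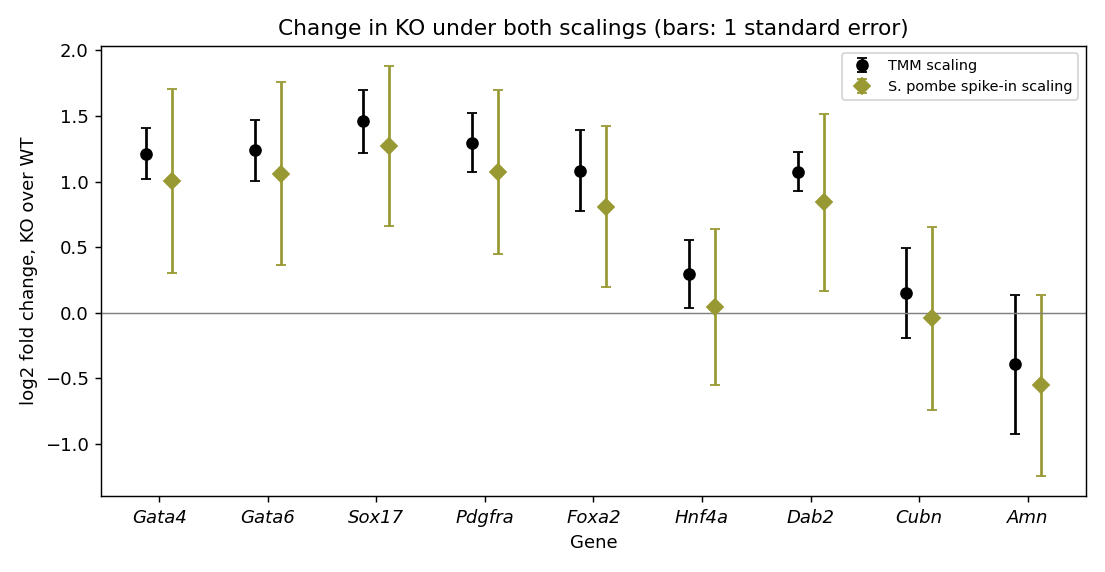
Log2 fold change of KO over WT for each gene, with bars of 1 standard error, under TMM scaling (circles) and S. pombe spike-in scaling (diamonds). The spike-in values sit a little lower and have wider bars, and none of them passed the test.

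Scaled to the S. pombe spike-in, in place of mouse RNA, none of the 9 genes passed, although 7 kept a positive value. The spike-in lowered the median log2 fold change of all tested genes to -0.23, from 0.01 with TMM. Mouse counts per S. pombe count were 3.25 and 5.60 in WT and 2.71 and 4.855 in KO. They lay further apart within a genotype than between genotypes at like depth. Sox17 was at 8.21 and 13.6 counts per 1e6 S. pombe counts in WT and at 16.3 and 36.2 in KO, the single gene of the 9 whose genotypes did not overlap, against 4.1% of all tested genes. Its log2 fold change was 1.27 ± 0.61 (SE, unadjusted p = 0.0379, adjusted p = 1 in edgeR). For Gata6 the values were 73.4 and 152 in WT and 119 and 351 in KO, where KO replicate 1 lay below WT replicate 2. The log2 fold changes of Gata6, Gata4, Pdgfra and Dab2 were 1.06 ± 0.70, 1.00 ± 0.70, 1.07 ± 0.62 and 0.84 ± 0.68. At an unadjusted p under 0.05 edgeR held 1 of the 9 genes as higher, against 0.429% of all genes, and at an adjusted p under 0.05 0.00596% of all genes were higher and 0.0953% lower. Within the pairs of like depth the spike-in differences of Gata6 were 0.70 and 1.21, and those of Pdgfra 1.06 and 1.08. With a term for these pairs in the spike-in fit, Gata4, Gata6, Sox17, Pdgfra, Foxa2 and Dab2 passed as higher, 6 of 9 against 4.86% of all genes, while 0 of 9 passed as lower against 35.8%. In the authors' deposited table, which is scaled to the spike-in, Sox17 had a log2 fold change of 0.81 with an unadjusted p of 0.0439 and an adjusted p of 0.999. No gene of the 9 passed in the authors' deposited table, where 0.0271% of 29514 genes did.

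Each gene was set beside the tested genes that start within 1 Mb of it, because stretches of some chromosomes are shifted as a whole in these libraries. Gata4 was above all 19 of its neighbours, whose median log2 fold change was 0.00 and of which 2 were higher, Xkr6 (0.73) and Mtmr9 (0.69). Its neighbour Sox7, which did not pass, came close at 1.09, against 1.21 for Gata4. Within 5 Mb of Gata4, 19 of 85 genes were higher and 2 lower, with a median of 0.23, and 5 reached or exceeded Gata4. Gata4 thus lies near a raised stretch of chromosome 14. Gata6, Sox17, Pdgfra and Dab2 were above all of their 10, 9, 9 and 6 neighbours, with medians of 0.07, -0.39, -0.35 and -0.05. Foxa2 was exceeded by 2 of 9 neighbours, 9030622O22Rik among them. Cubn, which did not pass, was also above all 13 of its neighbours, whose median was -0.10, so that position was not particular to the genes that rose. Hnf4a was reached or exceeded by 4 of 29 neighbours (median 0.06) and Amn by 27 of 33.

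**Figure D4:**
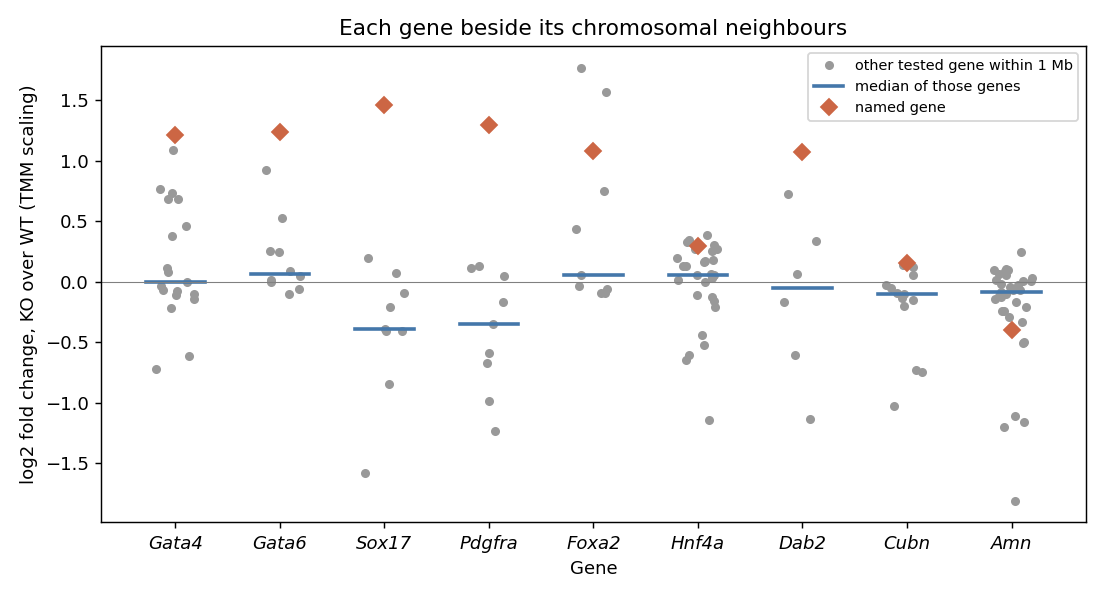
Log2 fold change of KO over WT (TMM scaling) for each gene (diamond), for the other tested genes that start within 1 Mb (grey points) and for their median (bar). Gata4, Gata6, Sox17, Pdgfra, Dab2 and Cubn lie above every neighbour shown, Cubn by little, and Foxa2, Hnf4a and Amn lie among theirs.

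Genes with the most similar profile to each of the 5 over the 4 libraries were found by Euclidean distance between centred log2 CPM values, among 12057 genes of at least 2 CPM. Airn, an imprinted antisense RNA, was nearest to Gata4 (distance 0.0853) and second nearest to Pdgfra (0.115) and Dab2 (0.174). Hs3st1, a heparan sulfate sulfotransferase gene, was nearest to Gata6 (0.142), followed by the protease gene Ctsh (0.198). The tissue factor gene F3 was nearest to Sox17 (0.101), then Prn (0.119). Hkdc1, a hexokinase-like gene, was nearest to Pdgfra (0.0990), and Mical2 to Dab2 (0.151). Gata4 and Pdgfra stood 0.137 apart and Gata4 and Gata6 0.164, while Gata4 and Cubn stood 1.21 apart. These distances rest on 4 libraries in 2 groups and describe likeness only.

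The other genes around this programme moved unevenly. Of 8 other primitive endoderm transcription factors tested, Creb3l2 alone was higher (0.57 ± 0.13, edgeR adjusted p = 0.0351) and none lower, with a median of 0.49. Sox7, the close relative of Sox17, had 1.98 and 3.60 CPM in WT and 5.48 and 6.67 CPM in KO, a log2 fold change of 1.09 ± 0.29 that just missed (edgeR adjusted p = 0.0557). Sox7 also lies on chromosome 14, where 5 of 16 neighbours within 1 Mb were higher. Limma voom called 2 of the 8 factors higher, against 3.98% of all genes. At an unadjusted p under 0.05 edgeR had 4 of the 8 higher and 0 lower, against 11.6% and 11.3% of all genes. The most abundant factor not called by edgeR after adjustment was Prdm1 (0.42). Of 12 genes for basement membrane, which endoderm cells secrete in quantity, and for collagen maturation, 9 were higher and Nid1 was lower. Their median was 0.76, and across all tested genes 4.05% were higher and 4.02% lower. The 9 included the collagen maturation genes Serpinh1, P4ha1 (0.39) and P4ha2 (0.90). Col4a1, Col4a2 and the collagen chaperone gene Serpinh1 led with 1.44, 1.40 and 0.99, and Nid2 (-0.30) was the most abundant gene not called. Leaving out either WT library lost some of the 9 higher calls. Leaving out WT replicate 2, or KO replicate 1, lost the call of Nid1.

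Markers of mature extraembryonic endoderm were uneven in level. Of 15 visceral endoderm genes for secreted and lipid transport proteins, 7 could be tested and 0 were called by edgeR, DESeq2 or limma voom, nor did any reach an unadjusted p under 0.05 in edgeR (0 of 7). Without WT replicate 1, or without KO replicate 2, edgeR called 1 higher. Afp, Ttr, Apoa1, Apoa2, Apoa4, Apoc2 and Trf had fewer than 10 counts in every library. Mttp, needed for lipoprotein assembly, stood at 34.0 and 34.7 CPM in WT and 33.4 and 29.1 CPM in KO. Apoe, the most abundant, overlapped between genotypes, with 69.7 and 54.0 CPM in WT against 82.4 and 58.4 CPM in KO. Among 5 parietal endoderm genes Plat, the tissue plasminogen activator gene, was higher (1.11 ± 0.27, edgeR adjusted p = 0.0371) and none lower, with a median of 0.88 and with Pth1r the most abundant not called (0.63). DESeq2 called none of these 5. At an unadjusted p under 0.05 edgeR had 4 of the 5 higher and 0 lower, against 11.6% and 11.3% of all genes. Of 8 mesendoderm and definitive endoderm genes 3 were tested. All of edgeR, DESeq2 and voom called 0 of them, and 0 reached an unadjusted p under 0.05 in edgeR. Cer1, Gsc, Lhx1, Mesp1 and Mixl1 were under 10 counts in each library, and Eomes stood at 3.37 and 3.29 CPM in WT and 4.37 and 3.08 CPM in KO.

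No ligand or relay gene of the PDGF and FGF pathways was called higher by edgeR, DESeq2 or voom on all 4 libraries, and 0 were higher at an unadjusted p under 0.05 in edgeR. Leaving out WT replicate 1, or KO replicate 2, gave 1 higher FGF gene. Of 5 PDGF ligand and receptor genes other than Pdgfra, Pdgfc fell by 0.59 ± 0.12 (edgeR adjusted p = 0.0221), from 416 and 348 CPM in WT to 271 and 238 CPM in KO, and Pdgfa, the ligand tied to this receptor in the blastocyst, stood at -0.08. Pdgfc was not called without WT replicate 1. Of 15 FGF ligand, receptor and relay genes tested, 0 were higher and 2 lower. Fgf4, the ligand that epiblast cells send to primitive endoderm, fell from 71.7 and 68.7 to 40.4 and 45.4 CPM (-0.71 ± 0.10, edgeR adjusted p = 0.00476). Sos1 fell by 0.93, and it lies on chromosome 17 among 16 neighbours of which 10 were lower. Of 18 endocytic receptor and clathrin adaptor genes, which share a route with Dab2 and Cubn, 0 were called by edgeR and 1, as higher, by DESeq2, and the median was 0.13. At an unadjusted p under 0.05 edgeR had 3 of 18 higher, near the 11.6% of all genes, and 0 lower. Without KO replicate 2 it called 2 higher and 1 lower, and without KO replicate 1 it called 1 higher. Cltc, the clathrin heavy chain gene, was the most abundant, at 0.22 ± 0.11.

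Several epiblast regulators were lower in KO. Of 11 pluripotency regulators tested, 5 were lower and none higher, with a median of -0.66. Among those 5, Tbx3 (-1.71), Klf4 (-0.87) and Tfcp2l1 (-0.73) had the largest changes, and Esrrb (-0.79 ± 0.22, edgeR adjusted p = 0.0682) was the most abundant not called. DESeq2 called 7 of the 11 lower, against 3.37% of all genes. At an unadjusted p under 0.05 edgeR had 8 lower and 0 higher, against 11.3% and 11.6% of all genes. Nanog, the known antagonist of Gata6, was lower as well, and Gata6 counts per Nanog count were 0.189 and 0.236 in WT against 0.615 and 0.810 in KO. In log2 this ratio rose from a mean of -2.24 to -0.50, against gaps of 0.32 and 0.40 within genotypes (exact two-sided permutation, p = 0.333, the smallest possible here).

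Markers of other cells were read beside these results. Of 13 markers of fibroblasts, the usual feeder cells, 7 were tested and 0 called in edgeR, voom and DESeq2. Unadjusted, edgeR had 1 higher and 2 lower at p under 0.05, and 1 passed as higher without KO replicate 2. Their summed level was 33.9 to 43.0 CPM in WT and 38.3 to 46.8 CPM in KO, most of it from Fbn1, and Dcn, Lum, Postn and Tcf21 had fewer than 10 counts in every library. Of 8 trophoblast genes tested 3 were higher and 0 lower: Cdx2 by 2.21 ± 0.52, Krt7 by 1.30 ± 0.29 and Gata3 by 0.88 ± 0.20. The median of the 8 was 0.94, beside 1.08 for the 9 genes. Limma voom also called 3 higher, against 3.98% of all genes. At an unadjusted p under 0.05 edgeR had 5 of the 8 higher and 1 lower, against 11.6% and 11.3% of all genes. Cdx2 was near the floor, with 4 and 4 counts in WT and 20 and 16 in KO. No trophoblast gene was higher without WT replicate 2 or in DESeq2, and 2 were lower without KO replicate 2. The summed trophoblast level was 117 and 133 CPM in WT and 86.5 and 135 CPM in KO, led by Tead4 (-0.21), and the part of such cells in the results above was not tested.

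**Figure D5:**
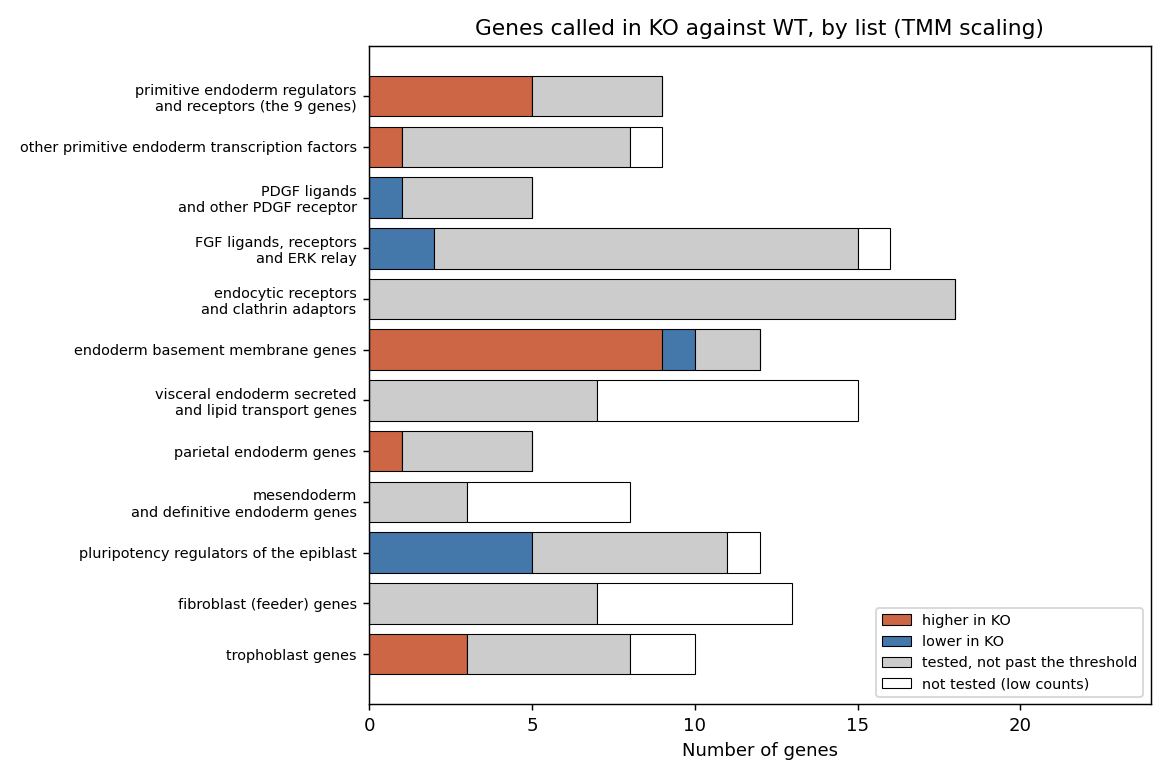
Number of genes per list that were higher or lower in KO, tested without passing, or not tested for low counts (edgeR, TMM scaling, adjusted p under 0.05). The 9 genes hold 5 higher and 0 lower. The basement membrane list, which includes collagen maturation genes, holds 9 higher and 1 lower, and pluripotency regulators 0 higher and 5 lower.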

How the data were processed

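TT-seq libraries of 2 WT and 2 KO samples were analysed from 3 deposited tables; accession order set the replicate numbers, since the labels carry none. The deposited values are raw counts per mouse gene and per S. pombe gene. The submitters' processing notes name mm10, DESeq2 1.16.1, HTSeq 0.6.1p1, STAR 2.5.3, cutadapt 1.10 and bcl2fastq 2.20.0.422, with no annotation release. The authors' deposited comparison table adds a normalized signal per library (counts over its size factor), p-values, and a log2 fold change that, per the table's name, was shrunken with a beta prior. Raw counts were equal in both tables (100% of values). Coordinates are those of the deposited table, and GENCODE M21 gives the same for 8 of the 9 genes, Gata6 being the exception.

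Low counts were filtered with filterByExpr (minimum count 10). The quasi-likelihood test of edgeR 4.0.16 in R 4.3.3 was used, with p adjusted (Benjamini-Hochberg) over all 16789 tested genes and a threshold of 0.05; the SE of a log2 fold change is its size over the root of the F statistic. Library size was mouse counts times the TMM factor, or S. pombe counts times their TMM factor. Alternatives were DESeq2 1.42.0, limma 3.58.1 voom, other scalings and filters, a term for the deeper and shallower pairs, and each library left out; in the last, a lone library is assumed to vary like the other pair. The edgeR script was tested on simulated counts. The 9 genes and the other lists were chosen with earlier results of these data known. Named beside the 9 genes were Supt3 and the 2 nearest profiles. From each list came up to 3 called genes with the largest change and the most abundant gene not called. Sox7, Pou5f1, Nanog, Nid1, P4ha1, P4ha2, Sox2, Mttp, the genes at low counts and single neighbours were named after their values were seen. A gene that this rule names is not reported here.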

Additional observations from a re-analysis of the deposited data

How the results depend on the processing

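Gata4, Gata6, Sox17, Pdgfra and Dab2 passed as higher with RLE factors, total counts, DESeq2, limma voom and both other filters. They also passed with the term for the deeper and shallower pairs. With spike-in scaling 0 passed as higher, also with the S. pombe total as library size or with S. pombe size factors in DESeq2. With no filter the edgeR adjusted p of Gata4 was 9.47e-19, against 0.00824 in the main fit, so passing there is weak evidence. Fits that leave out a library hold a lone library in 1 genotype, so passing in them is no separate support. Over the 4 fits that leave out a library, the log2 fold change ranged from 0.89 to 1.47 for Gata4, from 0.78 to 1.57 for Gata6, from 1.24 to 1.63 for Sox17, from 1.04 to 1.56 for Pdgfra and from 0.92 to 1.26 for Dab2. In the same fits 0 to 1 of the 9 genes was called lower, the 1 being Cubn without KO replicate 2. Cubn ranged from -0.56 to 0.62 there and was -0.0444 with spike-in scaling, and Amn ranged from -1.23 to 0.0414; the cause was not tested. Spike-in scaling with a term for the deeper and shallower pairs called 6 higher. Over all genes edgeR called 1355 with TMM, 17 with the spike-in (1 higher, 16 lower), 4307 with the term for the pairs, 818 without WT replicate 2, 2824 without KO replicate 2 and 2460 with no filter on low counts, where 29514 genes were tested. With both the spike-in and the pair term it called 816 higher and 6009 lower. No paired analysis was possible because the labels give no replicate numbers to pair by, other than the term for pairs of like depth, which was defined from counted reads. Depth limits Amn, with at most 13 counts in a library, and Foxa2, with at most 54.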
